A study of Mus musculus with 33 samples.

Results

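The 50 genes described here encode the machinery that copies DNA in S phase. They were chosen by name for their role in replication, with earlier results of these data known. Each of the 50 had 1 row in a count table of 55487 mouse genes, and all 50 were among the 36527 genes that entered the tests. They were grouped by role into 8 steps, namely licensing of origins (11 genes), helicase activation (6), the clamp and its loader (6), polymerases and primase (9), single-strand binding and the lagging strand (5), nucleotide supply (5), S phase entry (4) and the copying of chromatin and methylation (4).

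RNAseq libraries came from 33 mice of FVB background, 1 library per mouse, 19 of mammary tumors and 14 of tumor-free mammary glands. All mice carried MMTV-Cre, which is driven by a mammary tumor virus promoter active in mammary epithelium, and the mTmG reporter, whose recombined form makes GFP. PTHrP WT mice were Pthrp wt/wt and PTHrP KO mice were Pthrp flox/flox, so that Cre removes part of Pthlh, the gene of the parathyroid hormone-related protein. Tumor mice also carried PyMT, a viral oncogene under the MMTV promoter. Tissue was digested and kept for 48 h in medium with serum, and GFP+ cells were then sorted for total RNA. WT tumors were taken at weeks 6, 8 and 10 (3 mice each) and at week 12 (1 mouse), and KO tumors at weeks 8, 10 and 12 (3 mice each). Glands came from 2 WT mice each at weeks 6, 8, 10 and 12 and from 2 KO mice each at weeks 8, 10 and 12. The stages hyperplasia, adenoma and carcinoma stand for weeks 6, 8 and 10 in WT and for weeks 8, 10 and 12 in KO tumors, so that at each stage the WT mice were 2 weeks younger and genotype and age cannot be told apart. The WT tumor of week 12 has no replicate and was not tested. The question was how the genes of each replication step differed between tumor and gland and between the genotypes at each stage.

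Replication starts in G1, when the origin recognition complex, Cdc6 and Cdt1 load the Mcm helicase ring on DNA. Cyclin E with its kinase and Mcm10, Cdc45 and the GINS complex then switch the helicase on, and polymerases with the Pcna clamp copy both strands while ribonucleotide reductase and thymidylate synthase supply nucleotides. Most of these genes are known targets of E2F factors and are transcribed around the G1/S boundary, so that their mRNA is high in cycling cells and low in resting ones. In bulk RNA a larger share of cells in cycle and more RNA per cell cannot be told apart.

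RefSeq promoter windows (GRCm38.p6), from 250 bases before to 50 bases after a start site, were matched to 41 of the 50 genes by symbol. By the coordinates of Gencode M21, all windows of Cdc6, Dut, E2f1 and Mcm7 lay inside the gene. In these genes the bases before the annotated gene start were not searched. A search on both strands for the E2F letters TTTCCCGC, TTTCGCGC, TTTGCCGC or TTTGGCGC found a match in 17 of these 41 genes (41.5%), against 2.60% of the 27025 genes with a window of the same length. CCAAT, the letters of NF-Y sites, was in 25 of 41 (61.0%) against 41.1% of all genes. TTTGAA or TTCGAA, letters of the CHR element of late cell cycle genes, was in 9 of 41 (22.0%) against 21.7%. Matches can overlap one another, and a match is a description of letters and not of bound protein. Of the 24 E2F matches, 15 began within 100 bases before or 50 bases after the start site. The windows of 6 genes are shown because they span the range of the results below, with the E2F letters of either strand in capitals. Cdc6, Mcm5 and Mcm6 belong to the licensing step and Rfc3 to the clamp loader. Pold3 had the smallest change in WT tumors of week 6 of all 50 genes, and Mcm10 had one of the largest changes with no match in its window. The Mcm10 window ended in TTTGGCG, the start of TTTGGCGC, and the bases after it were not searched.
Cdc6 (chr11:98907901-98908200, plus strand): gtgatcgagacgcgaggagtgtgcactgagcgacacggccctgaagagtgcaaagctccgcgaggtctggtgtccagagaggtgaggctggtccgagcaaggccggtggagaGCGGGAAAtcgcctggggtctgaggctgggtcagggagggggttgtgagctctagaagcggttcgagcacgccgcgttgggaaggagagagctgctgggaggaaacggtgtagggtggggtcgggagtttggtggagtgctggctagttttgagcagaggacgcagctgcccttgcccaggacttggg
Mcm5 (chr8:75109259-75109558, plus strand): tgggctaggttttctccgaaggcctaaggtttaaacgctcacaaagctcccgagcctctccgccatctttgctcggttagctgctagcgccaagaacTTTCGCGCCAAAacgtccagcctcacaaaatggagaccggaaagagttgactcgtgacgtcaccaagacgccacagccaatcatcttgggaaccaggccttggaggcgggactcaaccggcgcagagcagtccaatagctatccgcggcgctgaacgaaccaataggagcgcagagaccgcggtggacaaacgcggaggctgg
Mcm6 (chr1:128359656-128359955, minus strand): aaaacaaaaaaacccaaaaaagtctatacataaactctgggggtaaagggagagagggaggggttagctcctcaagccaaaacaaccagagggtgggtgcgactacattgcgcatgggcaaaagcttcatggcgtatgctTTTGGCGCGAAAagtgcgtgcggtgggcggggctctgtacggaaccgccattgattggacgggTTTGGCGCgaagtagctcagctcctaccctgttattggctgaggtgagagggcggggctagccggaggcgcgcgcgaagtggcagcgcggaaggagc
Rfc3 (chr5:151651159-151651458, minus strand): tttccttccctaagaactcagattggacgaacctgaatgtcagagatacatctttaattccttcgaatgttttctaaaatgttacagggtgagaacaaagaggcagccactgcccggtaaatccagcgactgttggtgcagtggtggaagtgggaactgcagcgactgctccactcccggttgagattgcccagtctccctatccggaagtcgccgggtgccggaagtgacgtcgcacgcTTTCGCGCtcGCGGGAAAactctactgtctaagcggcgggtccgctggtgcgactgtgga
Pold3 (chr7:100121453-100121752, minus strand): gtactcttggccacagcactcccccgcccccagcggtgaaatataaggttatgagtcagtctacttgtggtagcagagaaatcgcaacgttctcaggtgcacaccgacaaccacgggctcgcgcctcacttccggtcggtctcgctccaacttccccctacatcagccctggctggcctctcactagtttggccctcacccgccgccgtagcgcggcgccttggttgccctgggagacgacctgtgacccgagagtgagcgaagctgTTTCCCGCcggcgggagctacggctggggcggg
Mcm10 (chr2:5012742-5013041, minus strand): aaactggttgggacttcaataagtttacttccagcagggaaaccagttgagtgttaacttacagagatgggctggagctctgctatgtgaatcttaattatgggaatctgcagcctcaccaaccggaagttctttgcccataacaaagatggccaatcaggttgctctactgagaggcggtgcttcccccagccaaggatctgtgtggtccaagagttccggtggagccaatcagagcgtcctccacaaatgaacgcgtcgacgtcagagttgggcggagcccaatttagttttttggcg
In the Mcm5 and Mcm6 windows a pair of matches on opposite strands overlaps. In Rfc3 a match begins 10 bases before the start site and another at the start site itself. A match was found in 6 of the 18 genes called in WT tumors of week 6 and in 11 of the other 23.

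Counted reads per library lay between 28419983 and 130981596 (median 46351179), and the lowest count of any of the 50 genes in any library was 51, so that none was near the limit of detection. Ribosomal RNA genes held 0.00296% to 0.261% of the reads in WT glands and 0.00717% to 0.447% in WT tumors, but up to 12.0% in KO tumors and 18.8% in KO glands. Keratins 8 and 18 (Krt8 at 1379 to 4690 CPM, counts scaled to the size of the library) and Epcam (525 to 1048 CPM) were high in all 33 libraries, and Pecam1, Adgre1 and Adipoq were at 3.56 CPM or less, where the labels give mammary epithelium as the cell type. Of other non-epithelial markers, Col1a1 ran from 2.35 to 143 CPM and Ptprc from 0.0945 to 10.26 CPM. The summed level of 10 basal or myoepithelial markers ran from 5311 to 20766 CPM in glands and from 1006 to 5420 CPM in tumors, and that of 10 luminal markers from 7212 to 12742 CPM in glands and from 4802 to 11096 CPM in tumors. The sums of 10 markers each ran, in glands and in tumors, from 19.1 to 840 and from 15.6 to 160 CPM for fibroblasts, from 62.8 to 172 and from 151 to 418 CPM for macrophages, and at most 22.0 and 8.68 CPM for endothelium and 14.5 and 15.6 CPM for adipocytes. The part of basal and macrophage markers, which differ between tumor and gland at every age, in the results was not tested. Pthlh counts, which include exons outside the deleted part and so do not check the deletion, were 2.93 to 7.72 CPM in WT and 2.79 to 8.52 CPM in KO glands, and 1.46 to 6.67 CPM in WT and 1.35 to 2.29 CPM in KO tumors.

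Per kb of exon, Pcna was the most abundant of the 50 genes (median of 46.4 CPM per kb over 33 libraries), followed by the maintenance methyltransferase Dnmt1 (29.5), Mcm7 (25.3) and Mcm4 (23.6). At the low end were E2f2 (1.26 CPM per kb), Ccne2 (1.86), Gins2 (2.05) and Mcm10 (2.15). The spread over libraries had another order than the level. Ccne2 (cyclin E2, SD of log2 CPM 0.86), Rrm2 (the regulated subunit of ribonucleotide reductase, 0.85), Mcm10 (0.79), Tk1 (thymidine kinase, 0.76), Cdc6 (0.74) and Uhrf1 (0.73) varied most. The highest library held 13.5 times the CPM of the lowest for Ccne2 and 13.3 times for Rrm2. Rfc1, the large subunit of the clamp loader (0.21), Pold3, an accessory subunit of polymerase delta (0.21), Dnmt1 (0.23) and Gins4 (0.24) varied least, with 1.81 to 2.13 times between the highest and lowest library. Pcna reads may be shared with the processed copy Pcna-ps2, which held 2512 reads over all libraries against 215034 for Pcna.

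**Figure D1:**
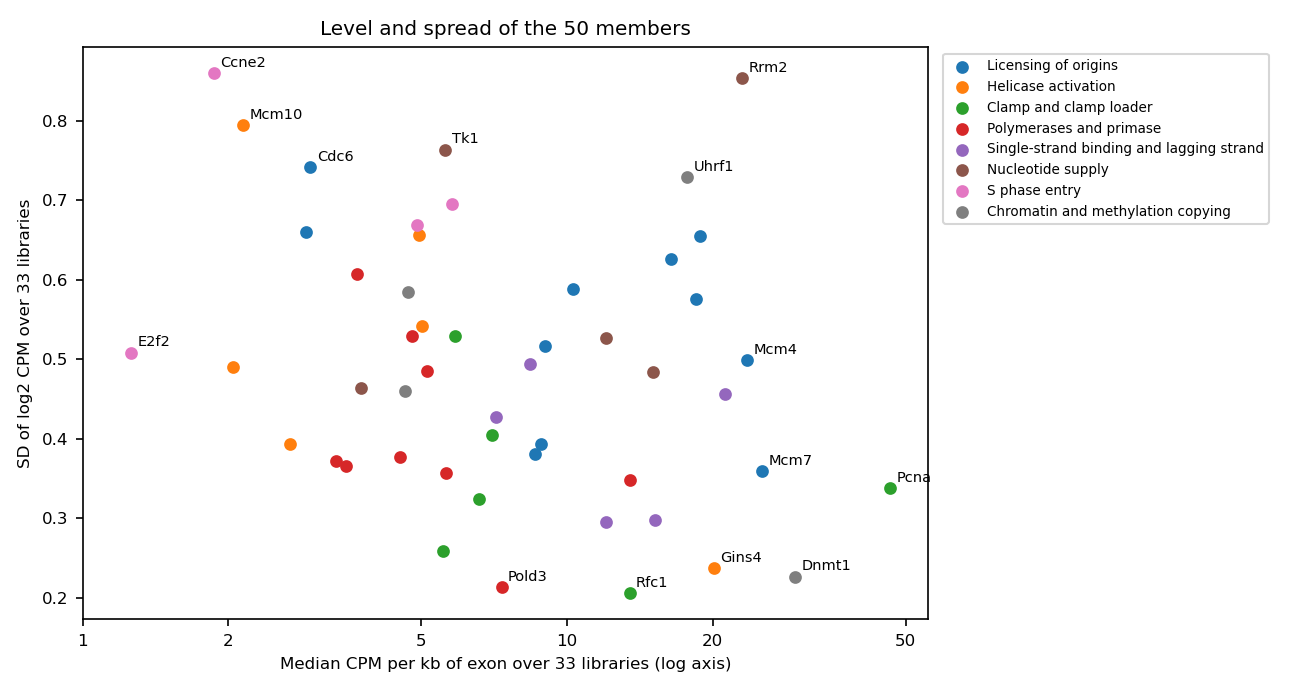
Median level per kb of exon (CPM per kb, log axis) against the SD of log2 CPM over 33 libraries for each of the 50 genes, coloured by step. Ccne2, Rrm2 and Mcm10 lie at the top with SDs of 0.86, 0.85 and 0.79, and Pcna and Dnmt1 lie at the right with SDs of 0.34 and 0.23.

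To summarise the 50 genes, the mean of their log2 CPM, each taken relative to its own mean over the 33 libraries, was used as 1 value per library. In WT tumors of week 6 this value was 0.40, 0.76 and 0.38, and in the glands of the same age -0.23 and -0.75. In WT tumors of week 8 it was 0.27, 0.12 and 0.07 beside 0.13 and -0.31 in glands. At week 10 it was -0.71, -0.19 and 0.44 in WT tumors and 0.23 and -0.71 in glands. The WT tumors thus lay above both glands at week 6 and overlapped the glands at weeks 8 and 10, and replicates of week 10 lay far apart. The WT tumor of week 12 was at -0.15, between its glands (0.13 and -0.43).

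In KO mice the values were -0.02, -0.46 and -0.39 in tumors of week 8 beside -0.40 and -0.68 in glands. At week 10 the KO tumors were at -0.01, -0.28 and -0.04 and the glands at 0.60 and 0.44. At week 12 the KO tumors were at 0.55, 0.06 and -0.14 and the glands at 0.16 and 1.15. Glands of KO mice of week 10 therefore lay above all tumors of their age, whereas at week 8 the first gland lay between the tumors and the second below them. The second KO gland of week 12 held the highest level of 45 of the 50 genes among all 33 libraries and also the largest share of rRNA reads (18.8%). The KO glands of week 10 had 8.04% and 4.35% rRNA. Those of week 8 had 0.0224% and 15.7%, at values of -0.40 and -0.68, and the first KO gland of week 12 had 0.0362%, at 0.16. In these levels the part of rRNA was not tested, and in the comparisons the rRNA share was a covariate or the libraries highest in it were left out.

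**Figure D2:**
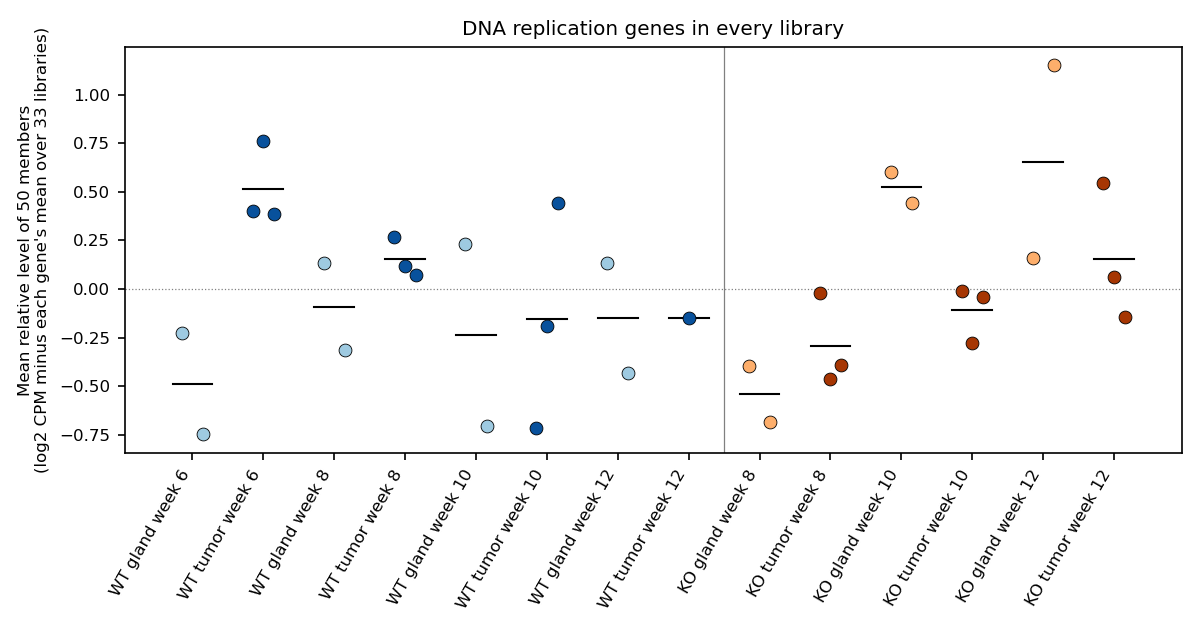
Mean relative log2 level of the 50 genes in every library (vertical axis, log2 CPM minus each gene's mean over 33 libraries), by genotype, tissue and week, with WT groups left of the line and KO groups right of it. Points are libraries and bars are group means, and the second KO gland of week 12 stands highest at 1.15.

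In WT tumors of week 6, 23 of the 50 replication genes were called higher than in glands of that age. Called genes had a fold change over 1.5 and an adjusted p under 0.1. No gene was called lower, against 2.32% of all 36527 genes called higher and 3.53% called lower. The median log2 fold change of the 50 genes was 0.89 (all 50 above 0), against a median of 0 over all genes tested. In 49 of the 50, Pold2 excepted, each of the 3 tumors lay above both glands, an order that 13.9% of all genes showed. At an unadjusted p under 0.05, 42 of the 50 were higher and none lower, against 15.5% of all genes in either direction. S phase entry had the largest median of the 8 steps (1.5), followed by nucleotide supply (1.130), the lagging strand (1.07), chromatin copying (1.05), helicase activation (1.02), licensing (0.98), polymerases (0.77) and the clamp (0.74). The number of calls rested on single libraries. No gene was called without the second gland of week 6, the lower of the pair (154 of all genes were then called higher, against 849 with all libraries), 1 without the second tumor (420 of all genes), 13 without the first gland (480) and 14 without the first tumor (489). The second gland of week 6 had the lowest mean relative level of all 33 libraries (-0.75) and the lowest CPM of all libraries in 14 of the 50 genes. The summed basal markers in the WT libraries of week 6 were 9271 to 11705 CPM in glands and 3060 to 3694 CPM in tumors.

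Of the 11 licensing genes 4 were called higher. Cdc6, which recruits the helicase to the origin, was at 21.6, 35.7 and 20.5 CPM in tumors and 12.7 and 5.58 CPM in glands, a log2 fold change of 1.5 (SE 0.49, adjusted p = 0.0894). All 3 tumors exceeded both glands, and the glands differed from each other by more than the lower 2 tumors did. Gmnn, the inhibitor of Cdt1 that keeps origins from being licensed again, was at 19.5, 26.3 and 19.8 CPM against 9.91 and 7.36 CPM (log2 fold change 1.34, SE 0.40, adjusted p = 0.055). Cdt1 itself was at 31.8, 41.4 and 35.4 CPM against 23.5 and 17.7 CPM (0.81, SE 0.27, adjusted p = 0.0897), and with the log rRNA share as a covariate it was not called (adjusted p = 0.101). Mcm7 was the only called subunit of the helicase ring, with the lowest adjusted p of all 50 genes (log2 fold change 0.98, SE 0.24, adjusted p = 0.0188).

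Other ring subunits had log2 fold changes of similar size with more spread. Mcm5 was at 114, 166 and 109 CPM in tumors and 69.2 and 41.0 CPM in glands (1.24, SE 0.46, adjusted p = 0.146). Mcm2 was at 89.7, 120 and 84.1 CPM in tumors and 63.7 and 44.6 CPM in glands (0.85, SE 0.37, adjusted p = 0.236). Neither passed the test, although no tumor overlapped a gland in either gene. Orc1, the largest subunit of the origin recognition complex, had a log2 fold change of 1.26 (adjusted p = 0.165).

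In helicase activation 4 of 6 genes were called higher. Mcm10, which helps to open the loaded ring, was at 26, 35.6 and 25.5 CPM in tumors against 10.7 and 5.34 CPM in glands (log2 fold change 1.86, SE 0.53, adjusted p = 0.0442). Cdc45, part of the active helicase, was at 26, 32.2 and 24.4 CPM against 11.6 and 7.53 CPM (1.52, SE 0.47, adjusted p = 0.0691). For both genes the lowest tumor was above the highest gland by more than the glands differed. Among the 4 GINS subunits Gins1 (1.30, adjusted p = 0.0431) and Gins4 (0.59, adjusted p = 0.0418) were called and Gins3 (0.73, adjusted p = 0.244) and Gins2 (0.50, adjusted p = 0.398) were not. Gins2 was at 11.6, 14.3 and 11.2 CPM in tumors and 11.0 and 6.52 CPM in glands, so that the first gland nearly reached the tumors.

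Of the clamp and its loader, the small loader subunits Rfc5 (1.22, SE 0.35, adjusted p = 0.0488), Rfc4 (0.93, SE 0.27, adjusted p = 0.0538) and Rfc3 (0.82, SE 0.21, adjusted p = 0.0222) were called, and Rfc1 (0.33) and Rfc2 (0.35) were not. Pcna, the sliding clamp that holds polymerases on DNA, was at 159, 183 and 140 CPM in tumors and 111 and 91.3 CPM in glands (0.66, SE 0.25, adjusted p = 0.16). Of 9 polymerase and primase genes the called ones were both primase subunits, Prim1 (1.22, adjusted p = 0.0604) and Prim2 (0.77, adjusted p = 0.0857), and Pole2 (0.83, adjusted p = 0.0499), a small subunit of polymerase epsilon. The catalytic subunits of the polymerases were not called, with log2 fold changes of 1.05 for Pola1 (adjusted p = 0.102), 0.84 for Pole and 0.62 for Pold1. Pold3 had the smallest change of the 50 (0.20). On the lagging strand 4 of 5 genes were called, namely the flap nuclease Fen1 (1.18, adjusted p = 0.0344), DNA ligase Lig1 (1.11, adjusted p = 0.0501), and Rpa2 (1.07, adjusted p = 0.0393) and Rpa1 (0.68, adjusted p = 0.0547) of the single-strand binding protein.

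In nucleotide supply 2 of 5 genes were called. Tk1, the thymidine salvage kinase, was at 41.6, 56.3 and 44.7 CPM in tumors and 17.9 and 8.77 CPM in glands (log2 fold change 1.84, SE 0.50, adjusted p = 0.0328). The lowest tumor was well above the higher gland. Rrm1, the large subunit of ribonucleotide reductase, was also called (1.130, adjusted p = 0.0721). Its partner Rrm2 was at 94.2, 141 and 97.8 CPM in tumors and at 56.0 and 21.3 CPM in glands (1.52, SE 0.62, adjusted p = 0.208), a larger change with a larger error, and it was not called. Tyms, thymidylate synthase, was at 29.6, 39.0 and 29.7 CPM against 22.4 and 17.7 CPM (0.71, SE 0.32, adjusted p = 0.267).

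Both E cyclins, which drive cells from G1 into S phase, were called. Ccne2 was at 12.7, 19.9 and 10.8 CPM in tumors and 5.82 and 1.84 CPM in glands, the largest log2 fold change of the 50 genes (1.92, SE 0.61, adjusted p = 0.0783). Ccne1 was at 19.1, 29.8 and 21.5 CPM against 11.1 and 5.38 CPM (1.51, SE 0.44, adjusted p = 0.0491). In both genes the tumors were above both glands. The transcription factor E2f1 was at 18.2, 22.5 and 25.6 CPM in tumors and 11.2 and 4.63 CPM in glands (1.49, SE 0.51, adjusted p = 0.107) and just missed the threshold.

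Of the genes that copy chromatin and methylation, Chaf1a, the large subunit of the histone chaperone CAF-1, was called (1.27, adjusted p = 0.0877). Uhrf1, which brings Dnmt1 to hemimethylated DNA, was at 114, 174 and 106 CPM in tumors and 62.0 and 33.1 CPM in glands (1.47, SE 0.50, adjusted p = 0.103). Dnmt1 was at 232, 297 and 206 CPM against 165 and 171 CPM, and its adjusted p of 0.0499 passed while its log2 fold change of 0.54 (SE 0.16) was under the fold of 1.5.

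**Figure D3:**
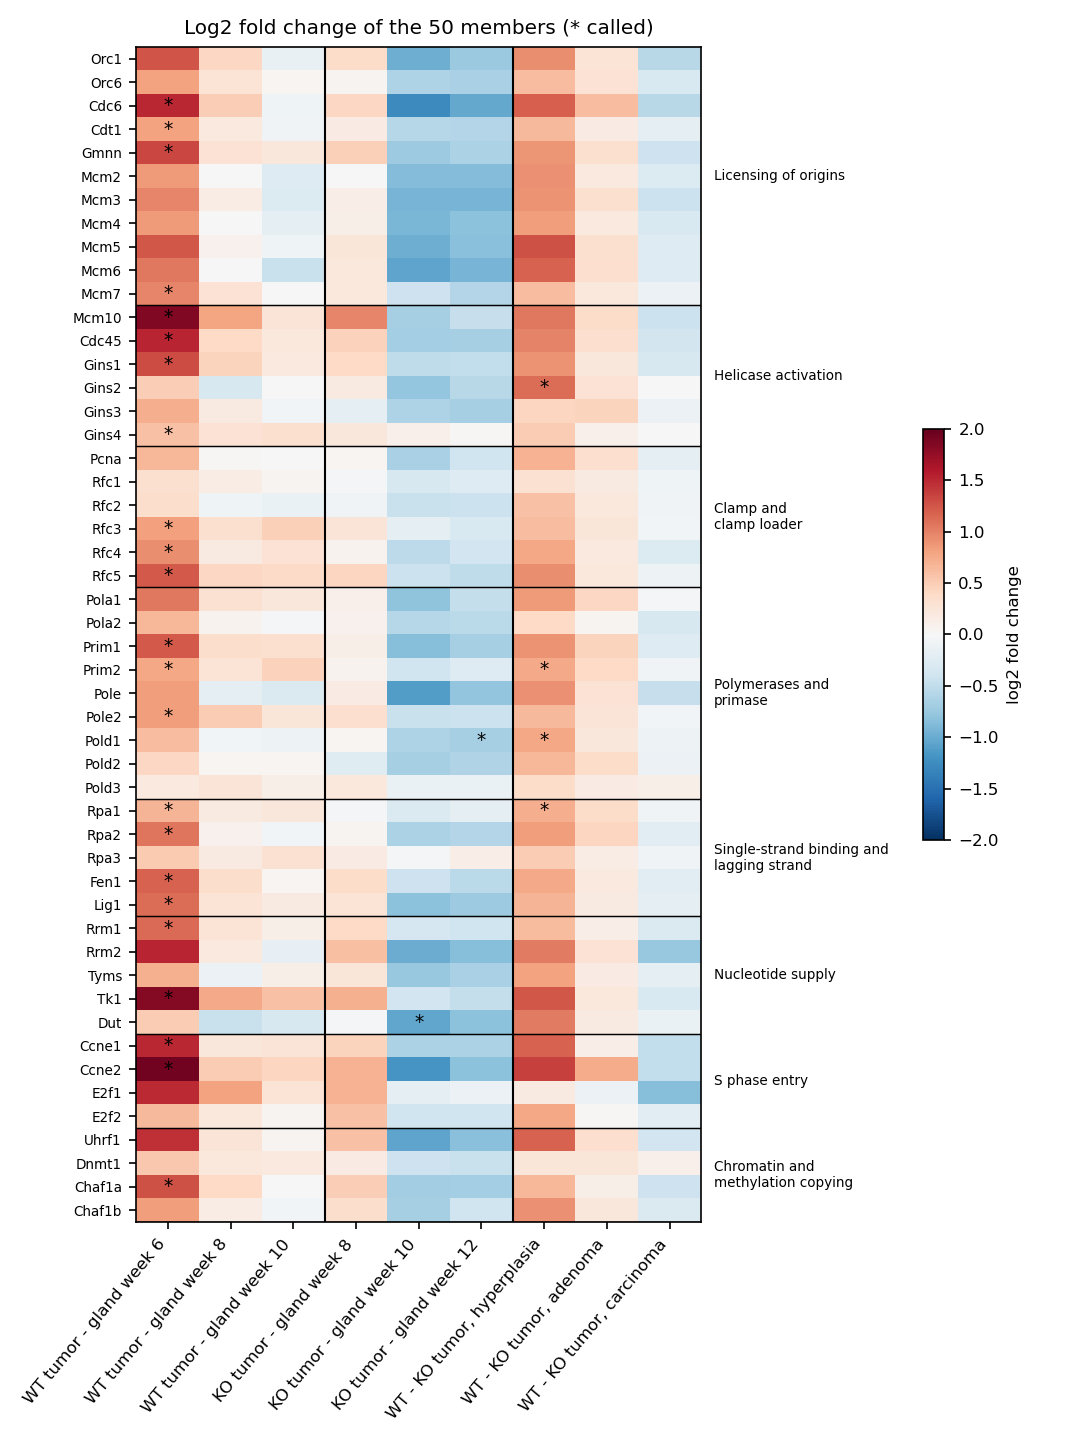
Log2 fold change (colour) of each of the 50 genes, by step, in the 6 comparisons of tumor with gland and the 3 comparisons of WT with KO tumors at matched stages. Asterisks mark the called genes, 23 of them in WT tumors of week 6 and 4 in WT against KO tumors of the hyperplasia stage, and the KO columns of weeks 10 and 12 are mostly below 0.

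At weeks 8 and 10 no replication gene passed the test between WT tumors and glands. None of the 50 genes was called by edgeR or DESeq2 at either age, against 3.35% of all genes called higher and 5.84% called lower at week 8 and 2.46% and 3.67% at week 10. By unadjusted p, 1 of the 50 was under 0.05 at each age, against 18.3% of all genes at week 8 and 15.4% at week 10. Without the second tumor of week 10, 1 of the 50 was called higher at that age (1074 of all genes, against 900 with all libraries). The median log2 fold change was 0.22 at week 8 and 0.05 at week 10. Every tumor lay above both glands in 15 genes at week 8 (16.3% of all genes) and in 1 at week 10 (10.1%). Cdc6 was at 20.2, 15.4 and 17 CPM in tumors of week 8 and at 15.8 and 9.30 CPM in glands (0.49). At week 10 it was at 7.24, 10.6 and 20.2 CPM in tumors and at 20 and 6.68 CPM in glands (-0.08). Tumor 3 and gland 1 of week 10 were about as high as the lower tumors of week 6, and tumor 1 and gland 2 were among the lowest libraries. Mcm10 (0.79), E2f1 (0.80) and Tk1 (0.76) had the largest values at week 8 and Dut, the dUTPase that keeps uracil out of DNA, the lowest (-0.44).

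At week 8 no replication gene passed the test between KO tumors and glands. None of the 50 genes was called by edgeR or DESeq2 and 0 had an unadjusted p under 0.05, against 1.11% of all genes called higher, 1.38% called lower and 10.6% under that p. The median log2 fold change was 0.21 (44 of 50 above 0), with the highest values for Mcm10 (0.98, adjusted p = 0.53) and Tk1 (0.72). Every tumor lay above both glands in 15 of the 50, against 15.0% of all genes. In 1 of the 50 every tumor lay below both, and the share of all genes with that order was not counted. Mcm10 was at 19.4, 10.27 and 12.0 CPM in tumors and 8.52 and 5.49 CPM in glands. S phase entry again had the highest median of the 8 steps (0.65) and the clamp the lowest (0.06).

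At week 10 most estimates for KO tumors against glands were below 0, and 1 of the 50 genes was called. The median log2 fold change of the 50 genes was -0.63, with 49 of 50 below 0, against a median of 0 over all genes. Dut was the 1 gene called lower, and no gene was called higher, against 3.09% and 2.57% of all genes. It was at 26, 22.7 and 29.3 CPM in tumors and 53.1 and 53.6 CPM in glands (log2 fold change -1.04, SE 0.33, adjusted p = 0.0799). The glands were nearly equal and the highest tumor lay well under both. With any 1 of the 5 libraries left out, none of the 50 genes passed the threshold, when 374 to 1021 of all genes were called lower (1129 with all libraries).

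Many of the other genes had the same order with larger spread. In 45 of the 50 genes, that is all but Gins4, Rpa3, Tk1, E2f1 and E2f2, each of the 3 tumors lay below both glands, as in 15.0% of all genes. In 13 of the 50 the tumors lay above both glands at week 8 and below both at week 10, as in 1.3% of all genes, and the difference between the ages was not tested. At an unadjusted p under 0.05, 25 genes were lower and none higher, against 15.1% of all genes in either direction, and DESeq2 called 11 lower (1562 of all genes). Licensing had the lowest median of the steps (-0.91), then nucleotide supply (-0.76), chromatin copying (-0.68), helicase activation (-0.64), polymerases (-0.61), S phase entry (-0.51), the clamp (-0.44) and the lagging strand (-0.41). S phase entry, the step with the largest median in WT tumors of week 6, was thus only the sixth lowest here, and licensing, sixth there, was first.

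Licensing had the lowest median of the 8 steps (-0.91), and Cdc6 the lowest value of the 50 genes. Cdc6 was at 13.8, 9.81 and 10.9 CPM in KO tumors of week 10 and 29.8 and 25.8 CPM in glands (-1.27, SE 0.46, adjusted p = 0.139). Mcm5 was at 76.2, 53.0 and 72.2 CPM in tumors and 138 and 124 CPM in glands (-0.97, SE 0.43, adjusted p = 0.269). Uhrf1 was at 74.8, 58.3 and 72.8 CPM against 161 and 126 CPM (-1.06, SE 0.47, adjusted p = 0.254). In these 3 genes the groups did not overlap and the adjusted p missed the threshold. The Mcm5 level of these KO glands lay within that of WT tumors of week 6 (109 to 166 CPM). In contrast, E2f1 was at 14.3, 21.4 and 25.6 CPM in these KO tumors and 23.9 and 22.3 CPM in glands (-0.18), so that the groups overlapped.

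At week 12 the KO tumors had a median of -0.58 (48 of 50 below 0), against 0.05 over all genes, but only in Rfc2 and Pold1 did every tumor lie below both glands, an order that 8.91% of all genes showed. Pold1, the catalytic subunit of polymerase delta, was called lower at 34.3, 26.1 and 27.3 CPM in tumors and 34.4 and 58.8 CPM in glands (-0.67, SE 0.22, adjusted p = 0.0768). The first tumor and the first gland were nearly level. No gene was called higher, and the background was 2.92% of all genes called lower and 3.19% called higher. An unadjusted p under 0.05 was reached by 17 genes, all lower, against 15.9% of all genes in either direction. The number of genes called depended on single libraries. Without the second gland none of the 50 was called lower (1075 of all genes, against 1067 with all libraries), without the first gland 16 were (739 of all genes) and without the first tumor 11 were (1255 of all genes). None of the 50 was called without the second tumor (675 of all genes lower) or the third (749).

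**Figure D4:**
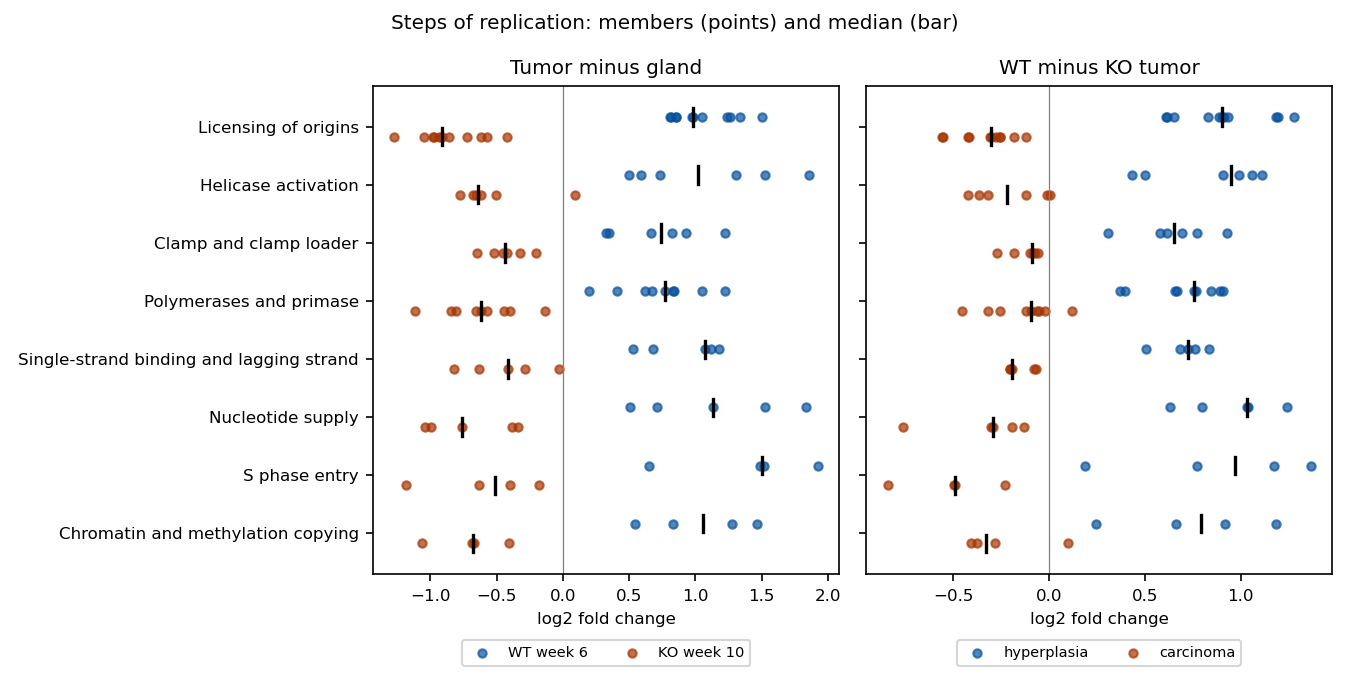
Log2 fold changes of the members of each step (points) with the step's median (bar), for tumor against gland at week 6 in WT and week 10 in KO mice (left) and for WT against KO tumors at hyperplasia and carcinoma (right). The steps lie above 0 in WT week 6 (medians 0.74 to 1.5) and at hyperplasia, and below 0 in KO week 10 (medians -0.91 to -0.41).

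WT tumors were also set directly against KO tumors of the same stage. At hyperplasia (WT week 6, KO week 8) the median log2 difference of the 50 genes was 0.79, with all 50 above 0, against -0.08 over all genes tested. The 4 called genes were all higher in WT, against 0.378% of all genes called higher and 1.15% called lower. In 48 of the 50, E2f1 and Dnmt1 excepted, every WT tumor lay above every KO tumor, as in 9.64% of all genes. At an unadjusted p under 0.05, 43 were higher in WT, against 14.2% of all genes in either direction. Nucleotide supply (1.03), S phase entry (0.97), helicase activation (0.95) and licensing (0.90) had the largest medians, and the clamp had the smallest (0.65).

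Gins2, a GINS subunit, was at 11.6, 14.3 and 11.2 CPM in WT and 7.2, 4.31 and 5.59 CPM in KO tumors (log2 difference 1.11, SE 0.24, adjusted p = 0.0452). It was called here although it was not called between WT tumor and gland at week 6. Pold1 was at 35.6, 45.6 and 33.7 CPM in WT against 26.4, 19.7 and 21.3 CPM in KO tumors (0.77, SE 0.20, adjusted p = 0.0695). Rpa1 was at 114, 138 and 105 CPM against 78.5, 63.3 and 74.0 CPM (0.73, SE 0.18, adjusted p = 0.0643), and Prim2 at 26.7, 31.8 and 25.9 CPM against 21.1, 15.5 and 13.2 CPM (0.76, SE 0.22, adjusted p = 0.0997). In these 4 genes no KO tumor reached a WT tumor. Larger differences that did not pass were those of Ccne2 (1.37, adjusted p = 0.208), Mcm5 (1.28, adjusted p = 0.12), Tk1 (1.24, adjusted p = 0.153), Cdc6 (1.20, adjusted p = 0.176) and Uhrf1 (1.19, adjusted p = 0.184).

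E2f1 was the exception among the regulators. It was at 18.2, 22.5 and 25.6 CPM in WT and 12.0, 22.6 and 23.8 CPM in KO tumors (0.19, adjusted p = 0.911), so that the groups overlapped. In KO tumors its first library was the lowest, whereas for Mcm5 the first library was the highest, at 79.1 CPM beside 40.4 and 41.0 CPM.

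The number of genes called at hyperplasia moved with the libraries and the fit. The first KO tumor had 0.00572% rRNA reads and a mean relative level of -0.02, and the other two had 12.0% and 3.62% rRNA and levels of -0.46 and -0.39. Without the first KO tumor 27 genes were called (833 of all genes called higher, against 138 with all libraries). Without any other of the 6 tumors none was, when 0 to 9 of all genes were called higher. With the log rRNA share as a covariate none was called and 12 of all genes were called higher, while the median difference of the 50 genes was 0.78 and stood at 0.79 without the covariate. DESeq2 called 32, and 556 of all genes higher. In a fit chosen after seeing the data, which left out the 3 libraries with over 10% rRNA, none was called, nor was any of all genes called higher.

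At adenoma (WT week 8, KO week 10) the median difference was 0.23 (49 of 50 above 0), against 0.07 over all genes. No gene was called by edgeR or DESeq2, 1 had an unadjusted p under 0.05, and the background was 0.00821% of all genes called and 4.48% under that p. In 26 of the 50 every WT tumor lay above every KO tumor, against 8.1% of all genes. Cdc6 was at 20.2, 15.4 and 17 CPM in WT and 13.8, 9.81 and 10.9 CPM in KO tumors (0.61). Dnmt1 was at 239, 241 and 227 CPM against 218, 175 and 205 CPM (0.24). Both genes were without overlap and neither was called.

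At carcinoma (WT week 10, KO week 12) the median was -0.24 (47 of 50 below 0), against 0.05 over all genes. None of the 50 was called by edgeR or DESeq2 and 0 had an unadjusted p under 0.05, against 0.0192% of all genes called and 6.53% under that p. Rrm2 was at 17.8, 54.2 and 81.2 CPM in WT and 141, 65.4 and 53.7 CPM in KO tumors, and its difference of -0.77 was smaller than the spread within either group. E2f1 had the lowest value (-0.84, adjusted p = 0.745). The sign at this stage was opposite to that at hyperplasia, but the difference between the stages was not tested.

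At the same age (weeks 8 and 10 averaged) WT tumors had a median difference from KO tumors of 0.24 (48 of 50 above 0), against 0.05 over all genes. The ages differed within this average. In the mean relative level of the 50 genes every WT tumor of week 8 (0.07 to 0.27) lay above every KO tumor (-0.46 to -0.02), and at week 10 the WT tumors (-0.71 to 0.44) spanned the KO tumors (-0.28 to -0.01). No gene was called by edgeR or DESeq2 and 5 had an unadjusted p under 0.05, all higher in WT, against 0.512% of all genes called and 10.9% under that p. In glands of the same age (weeks 8, 10 and 12 averaged) all 50 genes had lower estimates in WT, with a median of -0.34 against 0.14 over all genes. The mean relative level had this order at weeks 10 and 12, but at week 8 both WT glands (0.13 and -0.31) lay above both KO glands (-0.40 and -0.68). None was called by edgeR, 11 had an unadjusted p under 0.05, DESeq2 called 1 lower in WT (325 of all genes), and 0.906% of all genes were called and 12.4% were under that p. Ccne2 (-0.64), Cdc6 (-0.64), Ccne1 (-0.61) and Lig1 (-0.57, adjusted p = 0.213) were among the lowest. Without the first KO gland of week 12, 2 of the 50 were called lower in WT glands (291 of all genes, against 147 with all libraries), and without the first WT gland of week 10, 1 was (191 of all genes). Age by age, Ccne1 was at 7.73 and 7.51 CPM in KO glands of week 8, 21.1 and 19.0 CPM at week 10 and 17.9 and 34.6 CPM at week 12. In WT glands Ccne1 was at 16 and 8.19 CPM at week 8, 14.3 and 5.66 CPM at week 10 and 11.2 and 7.18 CPM at week 12. The KO glands of weeks 10 and 12 were all above the WT glands of these ages, and the KO glands of week 8 were below the WT glands of week 8.

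**Figure D5:**
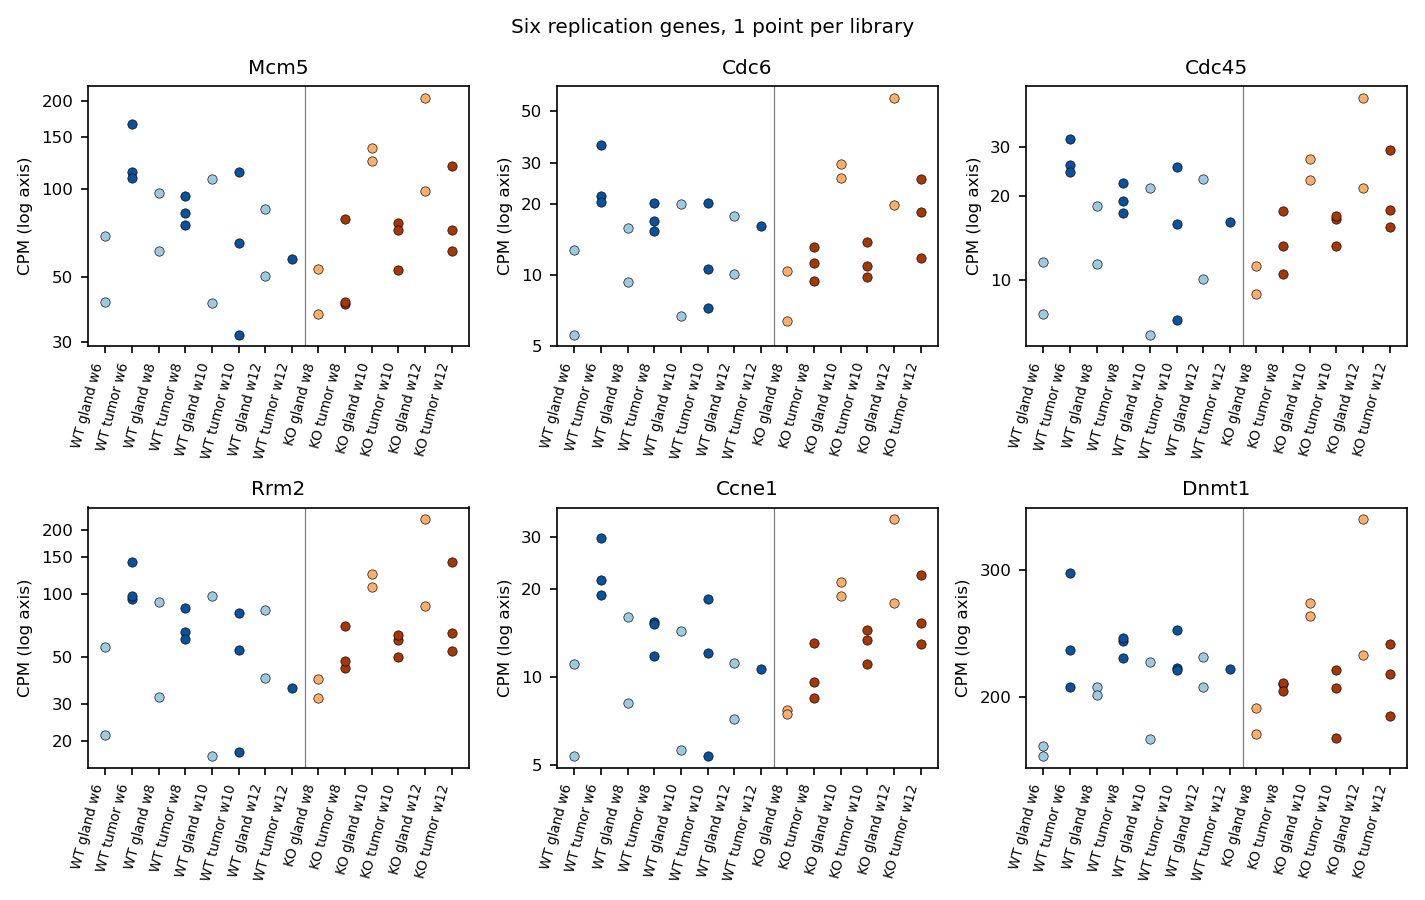
CPM (log axis) of Mcm5, Cdc6, Cdc45, Rrm2, Ccne1 and Dnmt1 in every library, 1 point per library, by genotype, tissue and week, with WT groups left of the line in each panel. For Ccne1 the KO glands of weeks 10 and 12 lie at 17.9 to 34.6 CPM and those of week 8 at 7.73 and 7.51 CPM.

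The tumor effect, that is tumor minus gland, was compared between the genotypes at each stage. Its difference (WT minus KO) had a median over the 50 genes of 0.78 at hyperplasia, 0.83 at adenoma and 0.62 at carcinoma, against -0.07, -0.0024 and -0.10 over all genes. The difference was above 0 in 49, 50 and 50 genes. None was called by edgeR or DESeq2 at any stage. Of all genes, edgeR called 0.0% at each stage, and DESeq2 called 18 higher and 9 lower at hyperplasia, 5 and 7 at adenoma and 17 and 61 at carcinoma. An unadjusted p under 0.05 was reached by 6, 13 and 3 genes, all higher in WT, against 5.97%, 4.13% and 5.31% of all genes in either direction. The lowest adjusted p was 0.785 for Orc6 at hyperplasia, 1.00 for Orc1 at adenoma and 0.784 for Dnmt1 at carcinoma. The largest difference was that of Cdc6 at adenoma (1.76), made of 0.49 in WT and -1.27 in KO mice, and the standard errors of the 50 genes ran from 0.18 to 0.84 over the stages.

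Within a genotype the tumors were compared from the first to the last stage. From week 6 to week 10 the WT tumors had a median log2 difference of -0.59 (all 50 below 0), against 0.03 over all genes. None was called by edgeR or DESeq2 and 24 had an unadjusted p under 0.05, against 0.011% of all genes called and 8.55% under that p. Every tumor of week 10 lay below every tumor of week 6 in 11 genes (5.17% of all genes), among them Cdc6, Orc1, Rrm2 and Ccne1. Rrm2 was at 94.2, 141 and 97.8 CPM at week 6 and at 17.8, 54.2 and 81.2 CPM at week 10 (-1.12). Without the third tumor of week 10, the highest of its group, 5 genes were called lower, when calls over all genes went from 4 lower and 0 higher to 206 lower and 168 higher.

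From week 8 to week 12 the KO tumors had a median difference of 0.46 (49 of 50 above 0), against -0.10 over all genes. None was called by edgeR or DESeq2, 5 had an unadjusted p under 0.05, and 0.0% of all genes were called and 7.88% were under that p. Tk1 had the largest value (0.84), at 26.4, 17.1 and 16.8 CPM at week 8 and 47.1, 35.8 and 25.0 CPM at week 12. Tumor 3 of week 12 was below tumor 1 of week 8. The estimates of the WT and KO tumors thus had opposite signs, and their difference was not tested.

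Of the genes followed, Mcm2, Cdt1, Cdc45, Pcna and Tyms were given so far for week 6. None of these 5 was called in any other comparison. Mcm2 ran from 28.9 to 180 CPM (median 62.5), with log2 fold changes of 0.01, -0.86 and -0.87 in KO tumors against glands at weeks 8, 10 and 12, 0.91 in WT against KO tumors at hyperplasia and -0.74 in WT tumors from week 6 to week 10. Cdt1 ran from 17.7 to 56.9 CPM (median 26.9), with log2 fold changes of 0.16, -0.57 and -0.59 in KO tumors at weeks 8, 10 and 12, 0.65 in WT against KO tumors at hyperplasia and -0.47 in WT tumors from week 6 to week 10. Cdc45 ran from 6.37 to 45.2 CPM (median 17.4), with log2 fold changes of 0.46, -0.68 and -0.67 in KO tumors at weeks 8, 10 and 12, 0.99 in WT against KO tumors at hyperplasia and -0.77 in WT tumors from week 6 to week 10. In all 3 the estimates for KO tumors were above 0 at week 8 and below 0 at weeks 10 and 12. Pcna ran from 77.9 to 226 CPM (median 111), with log2 fold changes of 0.03, -0.65 and -0.39 in KO tumors at weeks 8, 10 and 12, 0.69 in WT against KO tumors at hyperplasia and -0.52 in WT tumors from week 6 to week 10. Tyms ran from 12.9 to 57.0 CPM (median 22.9), with log2 fold changes of 0.25, -0.76 and -0.64 in KO tumors at weeks 8, 10 and 12, 0.80 in WT against KO tumors at hyperplasia and -0.50 in WT tumors from week 6 to week 10. Both had the same signs as the other three.

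Another 50 genes of replication (other origin, fork, checkpoint and histone chaperone genes) had medians nearer to 0. In WT tumors of week 6, 12 of them were called higher, against 2.32% of all genes, and the median was 0.57, against 0 over all genes, with the largest changes in Top2a, which untangles copied DNA (2.07, adjusted p = 0.0629), Clspn, a checkpoint adaptor (2.04, adjusted p = 0.0543), Fbxo5, an inhibitor of the anaphase-promoting complex (1.75, adjusted p = 0.0698), and Ticrr, which helps to fire origins (1.65, adjusted p = 0.0987). None of them was called at weeks 8 and 10 in WT or at week 8 in KO mice. Of all genes, 3.35%, 2.46% and 1.11% were called higher in these comparisons and 5.84%, 3.67% and 1.38% lower. In KO tumors 2 of these 50 were called lower at week 10 and 2 at week 12, against 3.09% and 2.92% of all genes. Cad, which starts pyrimidine synthesis, was called lower at week 10 (-1.0, adjusted p = 0.0247) and at week 12 (-0.96, adjusted p = 0.0292). Wdhd1, a fork protein, was lower at week 10 (-1.28, adjusted p = 0.0758) and Ssrp1, a histone chaperone, at week 12 (-0.62, adjusted p = 0.035). Between WT and KO tumors of the hyperplasia stage Dctpp1, which clears modified dCTP, was the 1 gene called (1.04, adjusted p = 0.0492), against 0.378% of all genes called higher.

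A set of 8 genes of G2 and mitosis served as a reference for cell cycling. Their median log2 fold change was 2.06 in WT tumors of week 6, against 0 over all genes. There 6 of 8 were called higher, against 2.32% of all genes. At weeks 8 and 10 the median was 0.61 and 0.36, against 0 over all genes, and none was called. Of all genes, 3.35% and 2.46% were called higher at these ages and 5.84% and 3.67% lower. In KO tumors it was 1.06 at week 8, -0.42 at week 10 and -0.32 at week 12, against 0.04, 0 and 0.05 over all genes. None of the 8 was called in KO mice. Of all genes, 1.11%, 2.57% and 3.19% were called higher at these ages and 1.38%, 3.09% and 2.92% lower. The replication genes had medians of 0.89, 0.22 and 0.05 in WT and of 0.21, -0.63 and -0.58 in KO mice. Between WT and KO tumors the medians of the 8 genes were 1.07 at hyperplasia, 0.19 at adenoma and -0.37 at carcinoma. Those of the replication genes were 0.79, 0.23 and -0.24, and those of all genes -0.08, 0.07 and 0.05. None of the 8 was called, against 0.378% of all genes called higher and 1.15% called lower at hyperplasia. At adenoma and carcinoma 0.00821% and 0.0192% of all genes were called. No test compared the sets.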

How the data were processed

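Libraries were prepared by the authors from rRNA-depleted total RNA with a stranded kit and sequenced in pairs. Reads were aligned with HISAT to Gencode M16 and GRCm38, Picard 1.128 took out duplicates, and HTSeq gave the raw counts that the authors deposited (55598 rows, of which 111 that name no gene, with 0.0778% of reads, were left out). The authors also deposited a normalized signal, counts divided by 1 size factor per library, from which whole reads were recovered for an alternative (100% of values whole within 0.01 in the lowest library). Labels gave the group of each library. Whether HTSeq used strand is not given in the sources used here.

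Counts were tested in edgeR 4.0.16 (R 4.3.3; glmQLFit and glmQLFTest, TMM scaling) with 1 coefficient per genotype, tissue and week over all 33 libraries. The 36527 genes tested had 10 or more reads in total. A gene was called at an adjusted p under 0.1 (Benjamini-Hochberg, over all genes tested) and a fold change over 1.5 in either direction. There were 16 comparisons. Standard errors (SE) were derived from the F statistic and the log2 fold change, and CPM is on the TMM scale. In the main fit a p-value sets a difference against the spread between mice within groups, which was estimated from all groups together. The alternatives were DESeq2 1.42.0 (the tool named by the authors), size factors of DESeq2 in edgeR, no filter, only the groups compared, the rRNA share or the replicate number as a term, recovered reads, and each library left out, with the dispersion trend of all libraries kept. Leaving out the 3 libraries with over 10% rRNA together was added after seeing the data.

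In counts simulated for the comparison of WT tumors and glands of week 6 (36527 genes), 39 of 100 genes changed by 1 log2 unit and 94 of 100 changed by 2 were called, with 5 false calls. Every simulated gene had the spread of the dispersion trend, and only 200 genes changed, chosen among those not low in reads. No library was shifted as a whole. These settings differ from the data, so the shares do not give the recovery in them. Among 25 pairs of libraries of 1 group none were duplicates (lowest chi-square per degree of freedom 42.3). The members and lists were chosen with earlier results of these data known. The text names, for each comparison and step, up to 3 called genes with the largest change, and follows 14 genes whether or not they were called (Mcm2, Mcm5, Cdc6, Cdt1, Cdc45, Gins2, Pcna, Rrm2, Tyms, Tk1, Ccne1, E2f1, Uhrf1 and Dnmt1). Other genes are named where they lie at the end of a range or have a part in a complex described, and were chosen with their values seen. The text leaves out 1 list of cell type markers, which is not reported here. Exon lengths are unions of exons of Gencode M21 (GRCm38).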

Additional observations from a re-analysis of the deposited data

Results flagged for a closer look

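In 4 followed genes of KO mice every tumor lay above both glands at week 8 and below both glands at week 10. The log2 fold changes were 0.61 and -0.99 for Rrm2, 0.45 and -0.63 for Ccne1, 0.59 and -1.06 for Uhrf1, and 0.16 and -0.41 for Dnmt1. The same change of order was seen in 13 of the 50 genes and in 1.3% of all genes, and in none of them was the order the other way round. The difference between the ages was not tested, and none of the 4 genes was called at either age.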

How the results depend on the processing

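Alternatives changed how many of the 50 genes were called and how many of all genes (given in brackets, in the direction of the members' calls), and no followed gene that was called changed its sign under any of them. For WT tumors against glands at week 6 (23 called, 849 of all genes) the count was 38 with no filter (1160), 35 by DESeq2 (1276) and 41 with only the groups compared in the fit (1275). For KO at week 10 (1 called, 1129 of all genes) it was 2 with DESeq2 size factors (1165), 17 with no filter (1522), 2 with the rRNA covariate (1297), 11 by DESeq2 (1562) and 29 with only the groups compared (1575). For KO at week 12 (1 called, 1067 of all genes) it was 7 with no filter (1299), 7 by DESeq2 (1450), 0 with only the groups compared (0) and 0 without the libraries over 10% rRNA (1016). For WT against KO at hyperplasia (4 called, 138 of all genes) it was 35 with no filter (476), 0 with the rRNA covariate (12), 32 by DESeq2 (556), 41 with only the groups compared (686) and 0 without the libraries over 10% rRNA (0). The median of the 50 genes was 0.79 there and 0.78 with the rRNA covariate. From a main count of 0, it was 1 for WT at week 8 with only the groups compared (1480, from 1223), 1 for WT against KO glands by DESeq2 (325, from 147), and 1 for WT tumors of week 10 against week 6 with no filter (197, from 4). The cause of these shifts was not tested. With 1 library left out the counts ranged from 0 to 21 for WT at week 6 (154 to 749), 0 to 1 for WT at week 10 (470 to 1074), 0 to 0 for KO at week 10 (374 to 1021), 0 to 16 for KO at week 12 (675 to 1255), 0 to 27 at hyperplasia (0 to 833), 0 to 2 for WT against KO glands (37 to 291) and 0 to 5 for WT tumors of week 10 against week 6 (0 to 206).

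Replicate numbers in the labels are shared by groups but name different mice. Of 21 pairs of equal number none had a correlation of deviations over 0.1 (range -0.37 to 0.0894), so the number was not used as a pairing. With the replicate number as a block, 22 genes were called in WT at week 6 (821 of all genes higher) and 11 at hyperplasia (202), and no count in another comparison moved by over 1.5 times. Groups of 2 glands limit all comparisons with glands.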
